A study of Mus musculus with 2 samples.

Results

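CD8-negative T cells of subcutaneous ovarian tumors were selected by their own measured transcripts. A unique molecular identifier (UMI) tags 1 captured RNA molecule, so counts are molecules per gene and cell. A cell was kept when it had at least 200 genes, at least 500 UMIs and at most 10% of its UMIs in mitochondrial genes, and when its barcode did not occur in both libraries. A kept cell was taken as a CD8-negative T cell when Cd3d, Cd3e, Cd3g and Trac together had at least 2 UMIs, Cd8a and Cd8b1 together had 0 and Csf1r had 0. This rule found 242 cells among 4403 kept cells, 138 of 1442 in the WT library and 104 of 2961 in the TSK library. The genes of the rule describe the selection and are no result. Both groups were female C57BL/6 mice aged 6-8 weeks that carried subcutaneous tumors of SO, a mouse ovarian cancer cell line. WT mice carried the normal fibrillin gene, and TSK (tight skin) mice carried, beside a normal copy, an Fbn1 allele with an internal duplication that gives an oversized fibrillin-1. The TSK allele is present in all tissues of the host, while the grafted SO cells come from the line. Tumors of 4 mice were pooled for each genotype before 1 library was made, with no selection of cell types, so mice cannot be told apart within a library. With 1 library per genotype there was no test between genotypes, and all 95% intervals below cover counting error only.

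T cells recognize antigen through a receptor coupled to the CD3 chains. Helper T cells carry the co-receptor CD4 and steer other immune cells with cytokines and surface ligands such as CD40L. Regulatory T cells (Tregs) are mostly CD4 cells that depend on the transcription factor Foxp3, and in tumors they commonly carry high levels of CTLA-4, the IL-2 receptor alpha chain and members of the TNF receptor family, through which they restrain effector cells. Gamma-delta T cells use another receptor, whose delta constant region is encoded by Trdc, and many of them carry neither CD4 nor CD8. Natural killer (NK) cells have no rearranged T cell receptor but can contain CD3 transcripts, and they share many receptors with cytotoxic T cells.

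The genes that define the described groups lie, in the GENCODE M21 annotation of GRCm38, at chr6:124864692-124888221 on the minus strand (Cd4), chrX:7573644-7595245 on the plus strand (Foxp3), and chr14:54142851-54148868 on the plus strand (Trdc, a receptor constant-region gene). Cd4 and Foxp3 are protein-coding genes.

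The libraries held 21225411 UMIs in 2332 barcodes (WT) and 48296765 UMIs in 4436 barcodes (TSK), of which 263 barcodes occurred in both libraries. The CD8-negative T cells had a median of 6658.5 UMIs in WT and 2834 in TSK. The TSK cells were thus the shallower ones, although their deepest cell held 70758 UMIs and the deepest WT cell 42394. Cells over 10000 UMIs numbered 23 in WT and 11 in TSK, and they carried 35.6% and 53.1% of the UMIs of the respective CD8-negative T cells. Transcripts of other cell types were present among them. Cancer cell markers (Lgals7, Cdkn2a, Krt8, Krt18, Krt19 and Epcam, of which Krt8 had 0 UMIs) summed to 11.9 CPM in WT (CPM is UMIs scaled to a total of 1e+06 UMIs over the cells summed) and 865 CPM in TSK, and 90.8% of the TSK UMIs came from the cells over 10000 UMIs. Lgals7 was found in 6 WT and 24 TSK cells, and Cdkn2a in 0 and 25. Fibroblast markers (6 genes, all detected) summed to 1238 and 3056 CPM, neutrophil markers (5 genes, all detected) to 1.83 and 611 CPM, macrophage markers (8 genes, with Csf1r at 0 by the rule) to 71.3 and 181 CPM, endothelial markers (4 of 5 detected) to 136 and 58.0 CPM, and B and plasma cell markers (3 of 6 detected) to 26.5 and 18.2 CPM. At least 3 UMIs of other-lineage markers were present in 37 WT and 33 TSK cells. Their part in the results was not tested. Because a few deep TSK cells weigh on summed UMIs, ratios between libraries are given for the sums and for the mean of per-cell CPM, in which each cell has equal weight.

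The marker genes fit the name only in part. Cd3e, a chain of the receptor complex that the rule itself used, had a UMI in 110 WT and 75 TSK cells. Icos, a co-stimulatory receptor of activated T cells, had one in 90 and 66 cells, Ikzf2, which encodes the transcription factor Helios, in 76 and 42, Cd4 in 59 and 26 and Foxp3 in 12 and 12. Cd4 or Foxp3 was detected in 46.4% of the WT cells (37.9 to 55.1%) and 34.6% of the TSK cells (25.6 to 44.6%). The cells are therefore called CD8-negative T cells, after the rule. Just inside the threshold, with 2 UMIs of the T cell genes, lay 16 WT and 21 TSK cells. Just outside it, with 1 UMI, lay 16 WT and 59 TSK cells, of which 2 and 1 had a Foxp3 UMI. On the other edge, 28 WT and 29 TSK T cells were left out for a single CD8 UMI. Of the barcodes present in both libraries, 2 in WT and 0 in TSK would have met the rule.

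CD8-negative T cells made up 9.57% of the kept WT cells (exact binomial interval 8.10 to 11.2%) and 3.51% of the kept TSK cells (2.88 to 4.24%). The log2 ratio of these shares, TSK over WT, was -1.45 (-1.83 to -1.07). Without the cells of the cancer gate (at least 2 UMIs of Lgals7 and Cdkn2a) in the denominator, it was -0.95. CD8 T cells, which met the same T cell rule but had a Cd8a or Cd8b1 UMI, were 22.4% of cells in WT and 5.94% in TSK. The share of all T cells without CD8 was 29.9% in WT (25.8 to 34.3%) and 37.1% in TSK (31.5 to 43.1%), and the interval of this log2 ratio, 0.31 (-0.07 to 0.69), spanned 0. A cell with few UMIs is more likely to show no CD8 UMI. When each T cell was reduced to 500 UMIs, 75.7% (WT) and 73.6% (TSK) of them were expected to lack one. At 2000 to 4000 UMIs per cell, 17 of 29 WT T cells (58.6%) and 57 of 166 TSK T cells (34.3%) had no CD8 UMI, so the order of the libraries turned with the depth range. At 4000 to 8000 UMIs per cell, 74 of 272 WT T cells (27.2%) and 15 of 56 TSK T cells (26.8%) had no CD8 UMI. In the other ranges the TSK share was the higher one, on few cells of at least 1 library. At 500 to 2000 UMIs it was 2 of 5 (40%) in WT and 19 of 36 (52.8%) in TSK. At 8000 to 16000 UMIs it was 37 of 138 (26.8%) and 6 of 11 (54.5%). From 16000 UMIs it was 8 of 17 (47.1%) and 7 of 11 (63.6%).

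**Figure D1:**
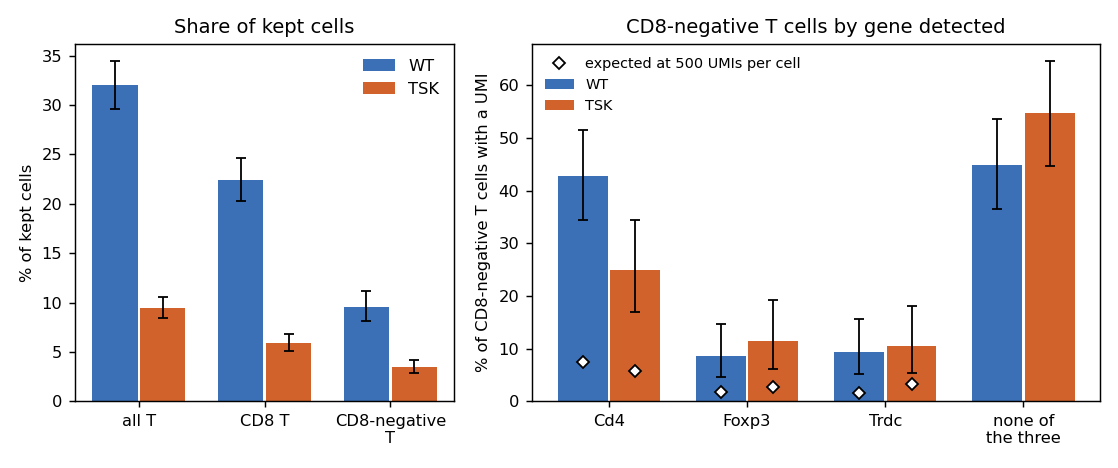
Left, T cells, CD8 T cells and CD8-negative T cells as a percentage of kept cells in the WT and TSK library; right, the percentage of CD8-negative T cells with a Cd4, Foxp3 or Trdc UMI or none of these. Bars are observed shares with exact binomial 95% intervals, and diamonds are the shares expected at 500 UMIs per cell; T cell shares of all cells are lower in TSK, while the Foxp3 and Trdc intervals overlap widely.

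Cd4 was detected in 59 of 138 WT cells (42.8%, 34.4 to 51.5%) and 26 of 104 TSK cells (25%, 17 to 34.4%). The log2 ratio was -0.77 (-1.5 to -0.09). At 500 UMIs per cell the expected shares were 7.41% and 5.72%, a smaller gap than at full depth. Among cells of 2000 to 4000 UMIs, Cd4 was detected in 4 of 17 WT (23.5%) and 13 of 57 TSK cells (22.8%). At 4000 to 8000 UMIs it was 34 of 74 (45.9%) and 5 of 15 (33.3%). At 8000 to 16000 UMIs it was 17 of 37 (45.9%) and 2 of 6 (33.3%), and from 16000 UMIs 4 of 8 and 4 of 7. Free RNA in droplets can give a UMI in cells that do not make it. Among CD8 T cells a Cd4 UMI was found in 1.24% (WT) and 0.568% (TSK), among cells of the cancer gate in 3.70% and 2.61%, and among endothelial cells in 16.0% and 0%, where the WT endothelial cells had a median of 17769 UMIs. At 500 UMIs this endothelial share was 0.551%. Per cell, Cd4 counts ranged from 1 to 9 UMIs in WT (median 2) and from 1 to 6 in TSK (median 1.5).

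Foxp3 was detected in 12 of 138 WT cells (8.70%, 4.57 to 14.7%) and 12 of 104 TSK cells (11.5%, 6.11 to 19.3%). The log2 ratio was 0.41 with an interval from -0.87 to 1.69, so a difference of the size of the Cd4 gap was not detectable in either direction. At 500 UMIs the shares were 1.84% and 2.81%. Single UMIs carried the call in 3 WT and 6 TSK cells, and no cell had more than 5. Background was low for this gene, with 1 of 323 WT and 1 of 176 TSK CD8 T cells, 0 of 81 and 0 of 149 endothelial cells (allowing up to 3.70% and 2.01% of cells with a UMI) and 0.926% and 0.395% of cancer-gate cells. Of the Foxp3 cells, 7 in WT and 2 in TSK also had a Cd4 UMI, which left 5 and 10 without one. For every 100 CD8 T cells there were 3.72 Foxp3 cells in WT and 6.82 in TSK, a log2 ratio of 0.88 (-0.41 to 2.16). As a share of all kept cells the Foxp3 cells were 0.832% and 0.405%, a log2 ratio of -1.04 (-2.32 to 0.25).

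Trdc was detected in 13 WT cells (9.42%) and 11 TSK cells (10.6%), a log2 ratio of 0.17 (-1.13 to 1.44), and the shares at 500 UMIs were 1.61% and 3.37%. In CD8 T cells it was found in 1.55% (WT) and 0% (TSK, allowing up to 1.70%). No cell had both Foxp3 and Trdc, which allows a share of up to 2.17% in WT and 2.88% in TSK, and 1 WT cell had both Cd4 and Trdc. None of the 3 genes was detected in 62 WT cells (44.9%) and 57 TSK cells (54.8%). For the description that follows the cells were divided into 4 groups without overlap, namely Foxp3 cells (12 and 12), Cd4 cells without Foxp3 (52 and 24), Trdc cells without Foxp3 or Cd4 (12 and 11) and cells with none of the 3 (62 and 57).

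**Figure D2:**
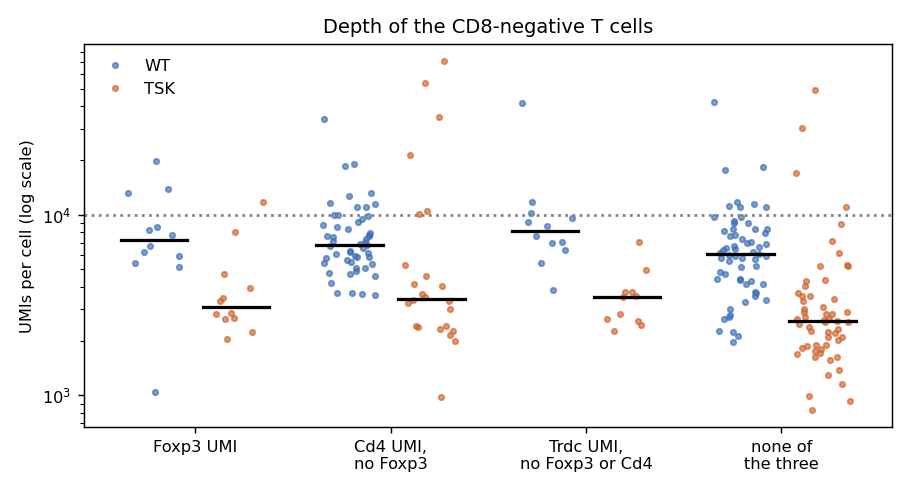
UMIs per cell on a log axis for the 4 groups of CD8-negative T cells in WT (blue) and TSK (orange); each point is a cell, black bars are medians and the dotted line marks 10000 UMIs. The medians of the TSK groups lie between 2589 and 3513 and those of the WT groups between 6099.5 and 8165, and 6 of the 11 TSK cells above the line are Cd4 cells without Foxp3.

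The Foxp3 cells carried a Treg transcript pattern in both libraries. Ikzf2, whose product Helios is abundant in many Tregs, had 292 UMIs in all 12 WT Foxp3 cells (2862 CPM) and 42 UMIs in 18 of the 52 WT Cd4 cells without Foxp3 (99.4 CPM). In TSK the corresponding counts were 138 UMIs in 11 of 12 cells (2734 CPM) and 5 UMIs in 5 of 24 cells (19.5 CPM). The log2 ratio of Foxp3 cells over Cd4 cells without Foxp3 was 4.85 (4.38 to 5.35) in WT and 7.13 (5.87 to 8.78) in TSK. Tnfrsf9, which encodes the co-stimulatory receptor 4-1BB, was at 1049 against 161 CPM in WT and 1050 against 85.8 CPM in TSK. Ctla4, the inhibitory receptor that competes for CD80 and CD86, had a UMI in all 12 Foxp3 cells of each library, with 1382 against 575 CPM in WT and 2021 against 117 CPM in TSK. Il2ra, the IL-2 receptor alpha chain, was at 490 against 239 CPM in WT and 971 against 81.9 CPM in TSK.

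Of 2534 genes with at least 50 UMIs over the 4 sums, 3.24% were at least 2-fold higher and 4.03% at least 2-fold lower in Foxp3 cells in both libraries. A sum of 0 UMIs counted as past 2-fold. Of the 102 lower genes 46 had one, and with 3 UMIs in place of 0 there were 62. Of 27 genes listed for regulatory T cells 13 were measured at this depth, leaving out Foxp3, and 7 of them were higher in both libraries and 0 lower. Besides the 4 above these were Tnfrsf4 (OX40), with log2 ratios of 1.76 and 1.35, Tnfrsf1b (TNF receptor 2), with 1.19 and 2.93, and Areg, a growth factor of the EGF family linked to tissue repair, with 1.02 and 1.86. Areg had a UMI in 9 of 12 WT and 8 of 12 TSK Foxp3 cells, against 11 of 52 and 1 of 24 Cd4 cells without Foxp3. With equal weight for each cell Tnfrsf4 was at 1.47 and 0.66, below 2-fold in TSK, and the TSK ratios of Ctla4 and Tnfrsf1b were 2.85 and 1.38. The other 4 genes were past 2-fold in both libraries by equal weight too. Icos differed between libraries, at -0.29 in WT and 1.99 in TSK. Il1rl1, the IL-33 receptor ST2, was found in 10 of 12 WT and 3 of 12 TSK Foxp3 cells, with expected shares at 500 UMIs of 26.8% and 4.98%. These are 12 cells in each library, and no difference between the libraries was tested.

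Other genes with the largest ratios in both libraries were Cd74 (4.22 in WT, 4.35 in TSK), the invariant chain of MHC class II, Iigp1 (3.39, 3.26) and Gbp7 (1.87, 2.71), which are interferon-induced GTPases, Gzmb (4.86, 3.18), which encodes granzyme B, Tox (4.46, 2.60), a nuclear factor of chronically stimulated T cells, and Itgav (1.91, 3.24), the integrin alpha V chain. Snx18, Hopx, Arid5b and Samhd1 had log2 ratios between 1.58 and 2.63. Gzmb in Foxp3 cells came from 4 WT and 6 TSK cells. Cd74 had 149 UMIs over 7 WT and 16 UMIs over 6 TSK Foxp3 cells. A single WT cell gave 59.9% of the 227 Cd74 UMIs of all WT CD8-negative T cells. Cd4 cells without Foxp3 had 33 Cd74 UMIs in WT and 4 in TSK, so the WT ratio rested largely on 1 Foxp3 cell. With equal weight for each cell all these genes stayed above 0 in both libraries, and the lowest value was 0.86 for Arid5b in TSK. The TSK Cd4 cells without Foxp3 included the deepest CD8-negative T cell and cancer cell transcripts (Lgals7 in 9 of 24, Cdkn2a in 6 of 24), as did the TSK Foxp3 cells (4 of 12 for both genes).

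**Figure D3:**
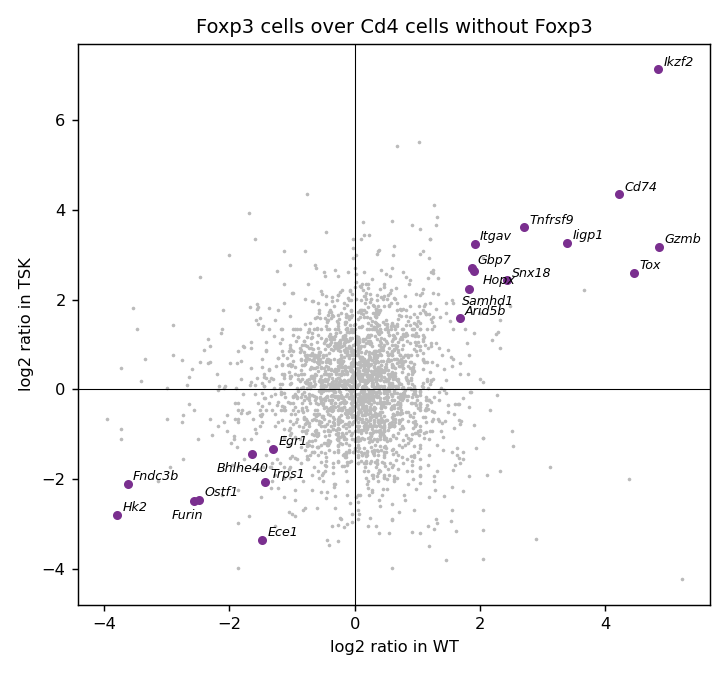
Log2 ratio of summed UMIs of Foxp3 cells over Cd4 cells without Foxp3 in WT (x axis) and TSK (y axis), 1 grey point per gene with UMIs in all 4 sums; purple points are the genes with the largest or smallest ratios by the interval bound nearest to 0 in both libraries. Ikzf2 is at 4.85 and 7.13, and Hk2, Furin and Ostf1 are below 0 in both libraries.

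Cd4 cells without Foxp3 carried helper cell transcripts, but a cell with few Foxp3 transcripts can show 0 Foxp3 UMIs and fall into this group. Genes of the regulatory T cell list were found in it too. In WT, Ctla4 had a UMI in 39, Il2ra in 22, Ikzf2 in 18 of the 52 cells. In TSK these were 12, 6 and 5 of the 24 cells. Tnfsf11, which encodes the ligand RANKL, had 126 UMIs over 29 of 52 cells in WT and 46 UMIs over 10 of 24 cells in TSK, and 0 UMIs in the 12 Foxp3 cells of either library. With 3 UMIs as the limit that a count of 0 allows over the group, it was at least 10.1-fold lower in WT Foxp3 cells and at least 3.02-fold lower in TSK Foxp3 cells. Cd40lg, the CD40 ligand, had a UMI in 16 of 52 and 5 of 24 of these cells and in 0 Foxp3 cells. Ifng, the type 1 cytokine interferon gamma, had 93 UMIs over 24 cells in WT and 25 UMIs over 8 cells in TSK, against 3 UMIs in 1 WT Foxp3 cell and 0 in TSK. Il13, a type 2 cytokine, had 22 UMIs in 4 WT and 50 UMIs in 2 TSK cells, with 96.0% of the TSK UMIs of CD8-negative T cells from 1 cell. Of 7 helper cell genes measured in this comparison 0 were at least 2-fold higher and 3 lower in Foxp3 cells (Tnfsf11, Ifng and Il13). With 3 UMIs in place of 0, Tnfsf11 alone stayed past 2-fold in both libraries, since the bound for Ifng in TSK was 1.64-fold and that for Il13 in WT 1.77-fold.

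Cxcr6, a chemokine receptor of tissue-resident T cells, had 96 UMIs in 32 WT and 24 UMIs in 8 TSK cells of the Cd4 group, against 2 UMIs in 1 WT Foxp3 cell and 0 in TSK. Hk2, a hexokinase of the first step of glycolysis, was lower in Foxp3 cells by log2 ratios of -3.80 (WT) and -2.80 (TSK), and Furin, a proprotein convertase, by -2.57 and -2.50. Bhlhe40, a transcription factor of cytokine-producing helper cells, was at -1.63 and -1.45, Egr1, an immediate early gene, at -1.30 and -1.33, and Ostf1 at -2.48 and -2.46. Trps1, Ece1 and Fndc3b were lower in both libraries, with ratios between -3.62 and -1.43, Fndc3b on 1 WT and 4 TSK UMIs in Foxp3 cells. Flt1 and Penk were among the lowest ratios too, but their UMIs in the Cd4 group came from 2 and 6 WT cells and 2 and 1 TSK cells. Pdcd1 (PD-1) was at -1.24 (-2.93 to 0.08) and -1.56 (-6.96 to 1.14), with intervals that spanned 0.

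**Figure D4:**
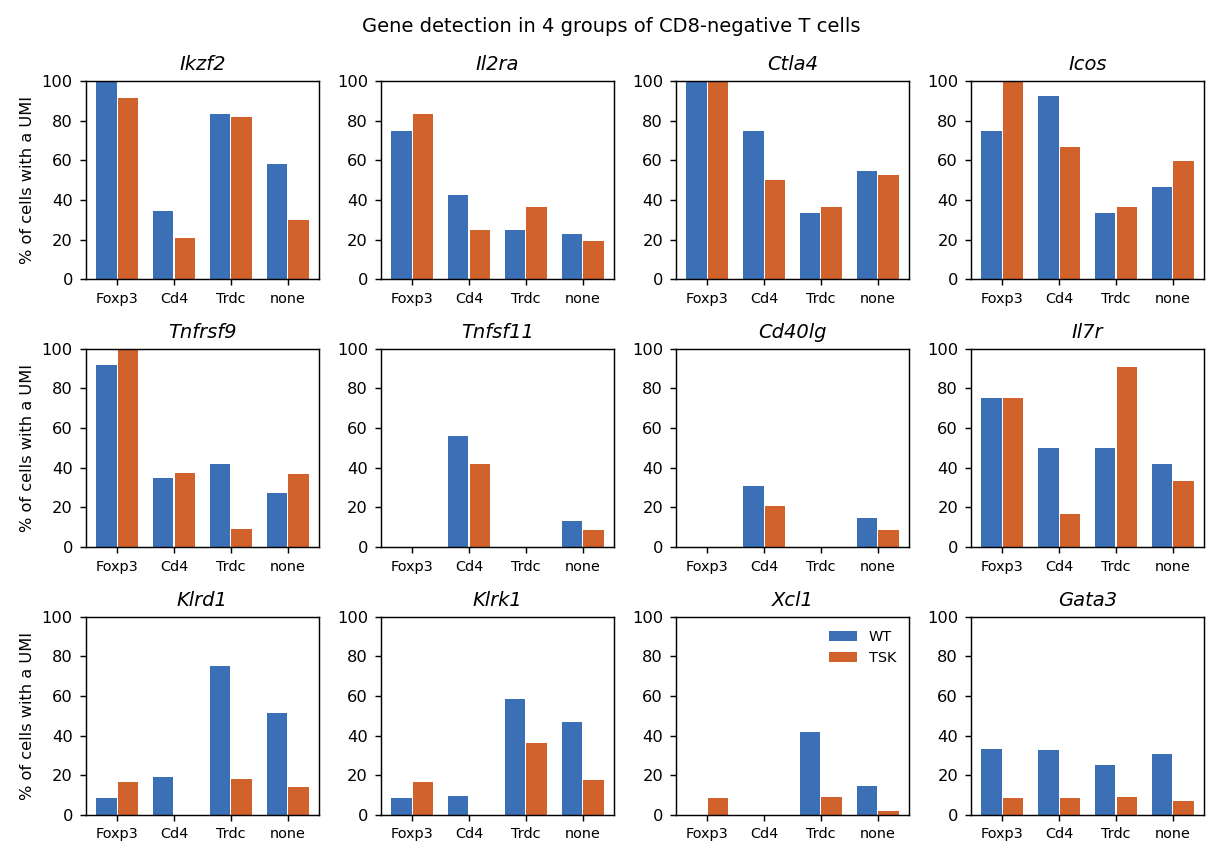
Percentage of cells with a UMI of 12 genes in Foxp3 cells, Cd4 cells without Foxp3, Trdc cells and cells with none of the 3 genes, in WT (blue) and TSK (orange). Ikzf2, Il2ra, Ctla4 and Tnfrsf9 are highest in Foxp3 cells, Tnfsf11 and Cd40lg are at 0 in Foxp3 and Trdc cells, and Klrd1 and Klrk1 have their highest shares in WT Trdc cells and WT cells with none of the 3 genes; depth differs between libraries.

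Trdc cells shared features of gamma-delta T cells that the gene itself did not set. Tcrg-C1, a gamma-chain constant region, had a UMI in 8 of 12 WT and 5 of 11 TSK Trdc cells (without Foxp3 or Cd4), against 1 of 62 and 2 of 57 cells with none of the 3 genes and 0 of 52 and 0 of 24 Cd4 cells without Foxp3. Tcrg-C4 had one in 8 of 12 and 1 of 11 Trdc cells. Because the gamma constant regions are similar in sequence, reads between them may be assigned with some uncertainty. Trac, the alpha-chain constant region and part of the rule, was found in 2 of 12 and 1 of 11 of them. Cd163l1, which encodes the scavenger receptor SCART1 of gamma-delta T cells, had 8 UMIs over 2 of these cells in WT and 21 UMIs over 5 in TSK, against 2 UMIs in 1 of 52 Cd4 cells without Foxp3 in WT and 1 UMI in 1 of 57 cells with none of the 3 genes in TSK. Il7r, the receptor for the survival factor IL-7, was found in 6 of 12 WT (265 CPM) and 10 of 11 TSK Trdc cells (968 CPM). It was also found in 9 of 12 WT Foxp3 cells (274 CPM) and 26 of 52 WT Cd4 cells without Foxp3 (246 CPM), and its log2 ratio of all Trdc cells over the others was 0.24 (-0.32 to 0.76) in WT and 3.14 in TSK.

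Across 4481 genes, 0.87% were at least 2-fold higher and 7.79% at least 2-fold lower in all Trdc cells (13 and 11) than in the other CD8-negative T cells in both libraries. Of the 349 lower genes 260 had a sum of 0 UMIs, and with 3 UMIs in place of 0 there were 117. Those with the largest ratios included Xcl1 (2.78 in WT, 5.84 in TSK), the chemokine lymphotactin, although its TSK UMIs came from 1 cell, Fcer1g (1.22, 1.5), a signalling adapter of innate receptors, Ikzf3 (1.17, 2.34), which encodes the lymphoid transcription factor Aiolos, Lyn (1.06, 2.11), a kinase of the Src family, and Igf1r (2.57, 2.17), the receptor for IGF-1. Atp8b4, Pde3b, Pitpnc1, Ly6c2 and Dscam had log2 ratios between 0.76 and 2.74, with Dscam from 1 Trdc cell in each library. Klra1, an NK receptor gene of the Ly49 family, had 16 UMIs in 4 WT Trdc cells and 5 UMIs in 1 TSK cell.

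The 12 genes with the smallest ratios in Trdc cells were Col1a1, Col1a2, Col3a1, Fn1, Bgn, Timp1, Sparc, Igfbp4, Serpinh1, Aebp1, Cpxm1 and Cxcl14, most of them matrix genes of fibroblasts. Col1a2 had 412 UMIs over 10 cells in WT and 623 UMIs over 3 cells in TSK outside the Trdc group. All 5 measured fibroblast markers were lower in Trdc cells in both libraries, and what they add to the share of lower genes was not tested. Of the regulatory T cell list 7 of 18 measured genes were lower and 0 higher, among them Foxp3, Ikzf4, Nrp1 and Tnfrsf4, whose 0 UMIs in the TSK Trdc cells allowed a difference of less than 2-fold. Tnfrsf4 had 1 UMI in WT and 0 in TSK Trdc cells, against 280 and 75 in the others, and Ctla4 was at -2.64 (WT) and -1.92 (TSK). From the receptor complex list 3 of 11 were lower, namely Cd2, Cd5 and Cd6, adhesion and signalling receptors of T cells, with Cd6 at 22.3 against 221 CPM in WT and 0 against 68 UMIs in TSK, where the bound was 1.58-fold. Helper cell genes were lower in 5 of 11, activation and checkpoint receptors in 6 of 17, and NK and innate T cell genes were higher in 2 of 9 and lower in 0. Some of these lower calls, among them Cd4, Cd40lg and Btla, rested on 0 UMIs in the TSK Trdc cells. For these 3 genes that sum of 0 allowed a difference of less than 2-fold. Areg and Il1rl1 had 0 UMIs in the Trdc cells of both libraries.

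The cells with none of the 3 genes contained many with NK receptors. A UMI of Ncr1, Klrb1c, Klre1 or Klra8 was present in 26 of the 62 WT cells (41.9%, 29.5 to 55.2%) and 9 of the 57 TSK cells (15.8%, 7.48 to 27.9%), a log2 ratio of -1.41 (-2.69 to -0.27). Over 16 NK and innate T cell genes together, these cells had 738 UMIs in WT (1673 CPM, 1555 to 1798) and 176 in TSK (684 CPM, 587 to 793), with means of per-cell CPM of 1604 and 914. The highest single cell gave 25.1% and 33.0% of these UMIs. In CD8 T cells the same genes were at 851 CPM in WT and 874 CPM in TSK, and in Cd4 cells without Foxp3 at 142 and 269 CPM. Trac was detected in 40 of 62 and 29 of 57 and Trbc2, a beta-chain constant region, in 46 of 62 and 31 of 57 of the cells with none of the 3 genes. Ikzf2 was found in 36 of 62 (1229 CPM) and 17 of 57 (474 CPM) and Icos in 29 of 62 and 34 of 57.

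Compared with CD8 T cells, CD8-negative T cells were lower in cytotoxic transcripts in both libraries. Of 7485 genes, 2.86% were at least 2-fold higher and 0.922% at least 2-fold lower in both. From the cytotoxic effector list 9 of 16 measured genes were lower and 1 was higher. Ccl5, a chemokine of effector cells, was at 821 against 3013 CPM in WT and 749 against 3115 CPM in TSK. Nkg7, a granule protein of cytotoxic cells, was at 293 against 883 CPM in WT and 156 against 993 CPM in TSK. Prf1 (perforin) had log2 ratios of -2.0 and -1.97, Gzmb of -2.02 and -1.52, Ccl4 of -1.93 and -1.92 and Gzmk of -2.25 and -1.75. The exception was Gzmc (3.61, 4.65), whose UMIs came from 6 WT and 4 TSK CD8-negative T cells. Klrc1, which encodes the receptor NKG2A, and Ly6c2, a surface protein of memory and effector CD8 cells, were also lower, by -1.62 and -2.04 and by -1.99 and -2.05. Klrc1 is on the NK and innate T cell list, of which 5 of 11 measured genes were higher in CD8-negative T cells and 2 lower. Lag3 and Cd160, both inhibitory receptors, were lower in both libraries. Gm44174, Tmem163, Smyd1, Setbp1 and Zyg11b were the remaining genes with the smallest ratios, with summed ratios between -5.05 and -1.5 where both sets had UMIs.

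Higher in CD8-negative T cells were 6 of 21 measured regulatory T cell genes, with 0 lower. Il2ra had 278 UMIs in 48 WT cells and 137 in 31 TSK cells, with log2 ratios of 2.16 and 2.10 over CD8 T cells, and Tnfrsf4 ratios of 3.86 and 1.60. Ikzf2 was at 1.40 and 1.82, Areg at 3.04 and 2.91, and Klrg1 at 1.27 and 2.72. The sixth was Foxp3 itself. Il1rl1 was at 6.11 and 2.38, and Maf, a transcription factor of helper and Treg cells, at 3.85 and 1.93. From the list of type 2 innate lymphoid cell genes 5 of 8 were higher. Ccr7, a homing receptor of naive and central memory cells, was at 2.44 and 4.03. Its TSK UMIs came from few cells, 12 UMIs from 3 cells without Trdc and 1 UMI from 1 Trdc cell. St6gal1, a sialyltransferase, had 77 UMIs in 30 WT cells and 19 in 10 TSK cells, against 15 and 0 in CD8 T cells. Several of the largest ratios rested on very few cells. Cxcl14 came from 1 WT and 2 TSK cells, Sfrp1, Cyp1b1 and Cxcl12 from 1 cell in each library, Ptx3 from 4 and 2, Il13 from 5 and 2, and Abi3bp from 3 and 10. Cxcl2 came from 5 and 11 cells. Cxcl14, Sfrp1, Cxcl12 and Abi3bp are transcripts typical of stromal cells.

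Between the libraries, 4405 genes were measured in CD8-negative T cells with at least 50 UMIs in all and 10 in each library. At least 2-fold higher in TSK by summed UMIs were 15.4% of them and at least 2-fold lower 6.67%. With equal weight for each cell 385 genes were higher and 140 lower, and 299 and 84 genes were past 2-fold in the same direction by both measures, that is, 44.1% and 28.6% of the genes called by sums. The median log2 ratio over all measured genes was 0.07 by sums and 0.10 by equal weight.

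Klrd1, Klrk1 and Klre1, 3 of the 8 measured NK and innate T cell genes, were at least 2-fold lower in the TSK cells by both measures. Of all 4405 measured genes, 84 were at least 2-fold lower by both. Klrd1, which encodes CD94, the partner chain of NKG2 receptors, had in WT 133 UMIs in 52 of 138 cells and in TSK 14 UMIs in 12 of 104 cells. Its log2 ratio was -2.39 (-3.30 to -1.59) by sums and -1.43 by equal weight, and the shares at 500 UMIs were 5.85% and 2.31%. In CD8 T cells its ratio was 0.10 (-0.18 to 0.38). Klrk1, the activating receptor NKG2D, had in WT 153 UMIs in 42 cells and in TSK 28 UMIs in 16 cells, a ratio of -1.59 (-2.23 to -1.0) by sums and -1.09 by equal weight, against 0.03 (-0.24 to 0.30) in CD8 T cells. Klre1, a lectin-like receptor of NK cells, had 63 UMIs in 28 and 14 UMIs in 10 cells, a ratio of -1.31 (-2.26 to -0.46) and -1.07 by equal weight, against 0.57 (0.11 to 1.01) in CD8 T cells. Among cells with a Cd4 or Foxp3 UMI alone the Klre1 ratio was 2.09, on very few UMIs. In WT there was 1 UMI in Foxp3 cells and 1 in Cd4 cells without Foxp3. In TSK there were 5 UMIs in 2 Foxp3 cells and 0 in Cd4 cells without Foxp3. The intervals of these 3 genes cover counting error only, and the difference between CD8-negative and CD8 T cells was not tested. Of the 8 measured genes of the NK and innate T cell list 4 were at least 2-fold lower by sums and 3 by both measures, with 0 higher and a list median of -0.98 by sums and -0.76 by equal weight. Klra7 was the fourth, at -1.08 by sums and -0.77 by equal weight, and was at -1.0 in CD8 T cells. Itga1, an integrin of tissue-resident cells, was at -1.40 (-2.22 to -0.65) by sums and -1.20 by equal weight, against -0.02 in CD8 T cells.

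Gata3, the transcription factor of type 2 helper cells, innate lymphoid cells and many Tregs, had 94 UMIs over 43 cells in WT and 8 UMIs over 8 cells in TSK. It was below the minimum of 10 UMIs in TSK and was not among the measured genes, and it is named after its values were seen. The ratio by sums was -2.70 (-3.95 to -1.66), by equal weight -1.49, and the shares at 500 UMIs were 4.11% and 1.58%. It was detected in 4 of 12 WT and 1 of 12 TSK Foxp3 cells, 17 of 52 and 2 of 24 Cd4 cells without Foxp3, and 19 of 62 and 4 of 57 cells with none of the 3 genes. CD8 T cells had a Gata3 ratio of -0.62 (-1.53 to 0.19).

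From the helper cell list 3 of 10 measured genes were lower by sums, 0 were higher, and Tnfsf8 (CD30 ligand) was the one lower by both measures. Tbx21, which encodes the type 1 factor T-bet, was at -1.28 (-1.78 to -0.81) by sums and -0.79 by equal weight. The regulatory T cell list had 4 of 18 measured genes lower by sums, 0 by equal weight and 0 higher by either, with list medians of -0.31 and 0.22. Il2ra was at -0.16 and 0.93, Ctla4 at -0.32 and 0.45 and Tnfrsf9 at -0.11 and 0.88 by sums and by equal weight, so that the sign of these 3 turned with the weighting. In the Foxp3 cells alone the 26 other genes of the list summed to 10106 CPM (9498 to 10742) in WT and 11114 CPM (10213 to 12073) in TSK. Among activation and checkpoint receptors 5 of 16 were lower by sums, and Nr4a2, an orphan nuclear receptor induced by receptor signals, also by equal weight (-1.42 and -1.10), with -1.35 in CD8 T cells. Pdcd1 was at 0.14 (-0.38 to 0.64) by sums and 1.28 by equal weight, found in 40 WT and 32 TSK cells.

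Cell cycle genes were higher in the TSK cells. Of 11 measured genes 7 were at least 2-fold higher by sums and by equal weight and 0 were lower, with a list median of 1.45 and 1.18. Of all 4405 measured genes, 299 were at least 2-fold higher by both measures. Top2a, a topoisomerase of dividing cells, had 83 UMIs over 26 cells in WT and 302 UMIs over 37 in TSK, a ratio of 2.72 (2.37 to 3.09) and 2.04 by equal weight. Tubb5, a tubulin, was at 1.98 and 1.18, Mcm6, a replication helicase subunit, at 1.07 and 1.20, and Stmn1 at 1.45 and 1.22. Mki67 was at 0.77 and 0.97, found in 19 WT cells (13.8%) and 16 TSK cells (15.4%). Other cells differed in these genes as well. In CD8 T cells Top2a was at 1.51 and Tubb5 at 1.01, and cancer-gate cells had a Mki67 UMI in 33.3% (WT) and 58.4% (TSK). What these transcripts add to the CD8-negative T cells was not tested. Without the cells that carried markers of another lineage, Top2a was at 1.01 and Tubb5 at 0.82, and Tyms, a nucleotide synthesis enzyme, turned from 2.37 to -1.22. With at most 10000 UMIs and genes per cell, Ube2c, another gene of the list, turned to -0.27.

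**Figure D5:**
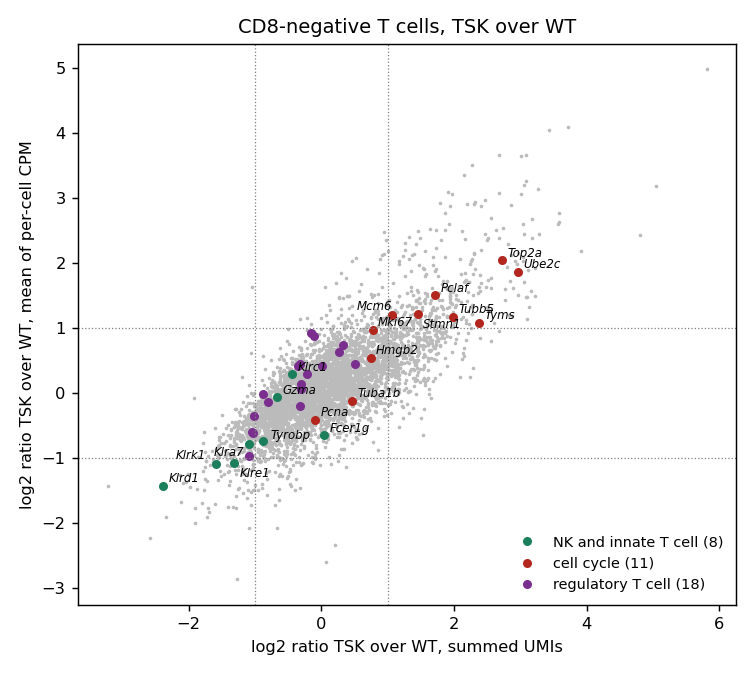
Log2 ratio TSK over WT in CD8-negative T cells by summed UMIs (x axis) and by the mean of per-cell CPM (y axis), 1 grey point per measured gene, with genes of 3 lists coloured and dotted lines at 2-fold. Cell cycle genes such as Top2a (2.72, 2.04) lie at the upper right, Klrd1 (-2.39, -1.43), Klrk1 and Klre1 at the lower left, and the 18 regulatory T cell genes are within 2-fold on the y axis.

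The 12 genes with the largest ratios were Hist1h2ap (5.81), Spp1 (5.05), Trf (4.80), Mid1 (3.91), Mt1 (3.57), Pi16 (3.72), Cald1 (3.43), Cxcl10 (3.22), Cdk14 (3.57), Eif4ebp1 (3.58), Sparc (3.0) and Ier3 (3.22), all by sums. Spp1 encodes osteopontin, a secreted matrix protein made by many tumor and myeloid cells, and had 24 UMIs in 17 WT and 439 UMIs in 40 TSK cells. Without cells that carried markers of another lineage Spp1 was at 2.29, Mt1 at 0.81 and Ier3 at 0.78. Sparc and Eif4ebp1 were then at 0.56 and Mid1 at 0.87. Trf and Cdk14 were at 1.78 under that alternative, Cxcl10 at 1.20, Cald1 at 4.59 and Hist1h2ap at 5.74. One TSK cell gave 90.0% of the Cxcl10 UMIs, and without cells over 10000 UMIs Cxcl10 was at 0.35. Single TSK cells likewise gave 62.8% of the Trf, 62.1% of the Pi16 and 61.9% of the Sparc UMIs. Without cells over 10000 UMIs Trf was at 0.68 and Sparc at 5.63. Pi16 was found in 3 WT and 4 TSK cells. Hist1h2ap, a replication-dependent histone, had 15 UMIs in 7 WT and 463 UMIs in 33 TSK cells, 55.1% of them from 1 cell. Many of the 12 genes were higher in TSK CD8 T cells as well. In CD8 T cells Mt1 was at 3.04, Cdk14 at 2.78, Mid1 at 2.58, Cald1 at 2.49, Trf at 2.05 and Eif4ebp1 at 2.03. Ier3 was at 1.83 there, Hist1h2ap at 1.55, Spp1 at 1.39, Sparc at 0.88, Cxcl10 at -0.64 and Pi16 at -3.53.

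The 12 genes with the smallest ratios were Tmtc2 (-3.21), Cdk8 (-2.13), Plcl1 (-2.58), Cyfip2 (-2.09), Rgs2 (-2.04), Camk1d (-1.76), Klrd1 (-2.39), Il31ra (-1.76), Gm19951 (-2.01), Fndc9 (-2.34), Mthfs (-2.11) and Cd74 (-1.92). Tmtc2 and Cd74 rested on 1 WT cell with 78.0% and 59.9% of the UMIs, and without cells over 10000 UMIs their ratios were 0.78 and 0.84. Rgs2, a regulator of G protein signals, had 535 UMIs over 105 cells in WT and 72 UMIs over 34 in TSK, a ratio of -2.04 (-2.41 to -1.68) by sums and -1.37 by equal weight, against -0.38 (-0.58 to -0.18) in CD8 T cells. Cdk8, a kinase of the mediator complex, Cyfip2, an actin regulator, and Il31ra, a cytokine receptor chain, were also below -1 in CD8 T cells, at -1.52, -1.18 and -1.15. Mthfs (-2.66), Fndc9 (-1.61) and Gm19951 (-1.20) were below -1 in CD8 T cells too, and Camk1d was at -0.97 there. Plcl1 was at 1.30, Tmtc2 at 1.91 and Cd74 at -0.14 in CD8 T cells.

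The remaining lists gave smaller or less stable values between the libraries. Interferon-stimulated genes had a median of 0.01 by sums and 0.43 by equal weight, with 1 of 12 higher by both (Rsad2, at 2.48 and 1.64, with 46.5% of the TSK UMIs from 1 cell). Ifit1 (0.91, 1.63) and Zbp1 (0.86, 1.27) were past 2-fold by equal weight only, and in CD8 T cells they were at -1.12 and -0.37. Of the naive and memory list 5 of 12 were lower and 1 higher by sums, and by both measures Itga1 was lower and Klf2, a factor of quiescent circulating T cells, higher (1.34 and 1.12). The receptor complex list had 4 of 11 lower by sums and 0 by equal weight, cytotoxic effectors 3 of 12 and 0, the IL-2 and common gamma chain list 3 of 16 and 0, and chemokine receptors and migration genes 2 of 12 by sums and 1 by equal weight, with no gene by both. In the list of TGF-beta and matrix response genes 2 of 10 were lower by sums and 1 by both measures (Tgfbr1, at -1.02 and -1.48). Immediate early and heat shock genes had 3 of 15 higher by sums, 2 by equal weight and none by both. Of the gamma-delta list 3 of 17 genes were measured, with none past 2-fold by sums and Trdc and Il1r1 higher by equal weight, and of the type 2 innate lymphoid list 1 of 5 was lower by sums (Il1rl1, at -1.53 and -0.67).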

How the data were processed

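The authors deposited raw UMI counts per gene and barcode for each library, made with Cell Ranger 7.1.0 per the file headers (build mm10 per the labels). Whether intronic reads were counted is not given in the sources used here. The limit of 10000 UMIs and genes in the study's cell filter was left out and run as an alternative. Doublets were left in and no caller was run. Members and gene lists were chosen with earlier results of these data known. Shares have exact Clopper-Pearson 95% intervals, and ratios of summed counts have exact conditional intervals. The limit that 0 UMIs allow was set at 3 UMIs over the set of cells. Shares at 500 UMIs are the expectation after drawing 500 UMIs of each cell without replacement. A gene was called at 2-fold or more. Named genes are the list members and, per comparison, the 12 largest and 12 smallest log2 ratios by the interval bound nearest to 0, leaving out mitochondrial, ribosomal and rule genes. On counts simulated as independent Poisson draws for TSK over WT, 96.0% of the intervals of 4405 genes held the simulated ratio. The intervals assume such draws, so this checks the computation only. It does not cover UMIs clumped in single cells. Computations used scipy 1.17.1 and numpy 2.4.6 with pandas 2.3.3 under Python 3.11.15, and plots matplotlib 3.10.9. Depth per library is given with the results, and few UMIs per gene limit the precision. Coordinates are from GENCODE M21, which held 99.8% of the 32285 gene IDs. Some named genes are not reported here.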

Additional observations from a re-analysis of the deposited data

Results flagged for a closer look

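Within-library log2 ratios of 12 listed genes were past 2-fold in opposite directions in the WT and TSK library, by summed UMIs and with both counting intervals off 0, and the difference between the libraries was not tested. Only listed genes were searched, and the share of all measured genes that meet the same rule was not counted. The number 12 is therefore no result about the lists. In Foxp3 cells over Cd4 cells without Foxp3, Entpd1 was at -2.90 in WT and 1.43 in TSK, Lat at -1.67 and 1.83, Nkg7 at -3.54 and 1.81 and Satb1 at -1.0 and 2.14, while Fcer1g was at 2.31 and -1.82. In Trdc cells over the other CD8-negative T cells, Dusp1 was at -1.20 in WT and 1.46 in TSK and Klra7 at -1.71 and 4.30, while Hmgb2 was at 1.01 and -1.48, Hsp90aa1 at 1.15 and -1.32 and Tubb5 at 1.55 and -2.96. In CD8-negative over CD8 T cells, the epithelial and cancer cell genes Krt18 (-4.04 in WT, 1.14 in TSK) and Lgals7 (-2.89, 1.64) differed in direction. Several rested on few cells or on the weight of deep cells. The Fcer1g UMIs came from 1 Foxp3 cell in each library (12 UMIs in WT and 3 in TSK) and, in TSK, from 3 Cd4 cells without Foxp3 (54 UMIs). Entpd1 had 1 UMI in WT Foxp3 cells, and Klra7 came from 1 WT and 2 TSK Trdc cells. With equal weight for each cell Entpd1 (-2.08, 1.13), Dusp1 (-1.09, 1.56) and Klra7 (-1.63, 4.05) stayed past 2-fold in opposite directions. The other 9 did not. Nkg7 (-4.49, -0.29) and Hmgb2 (-0.03, -1.05) then had the same sign in both libraries. Hsp90aa1 was at 0.23 and -0.57, Tubb5 at 0.33 and -2.92, Lat at -2.0 and 0.74, Satb1 at -0.78 and 0.81, Fcer1g at 1.89 and -0.99, Krt18 at -1.32 and 0.40 and Lgals7 at -0.59 and 1.40.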

How the results depend on the processing

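No paired analysis was possible because each genotype had 1 library. Of the comparison values recomputed under the alternatives, 89 stayed within the interval of the reported share ratio or within 1.5 times the reported gene count, and 20 did not. Of the values of single genes 2019 stayed within the reported interval, 677 left it and 20 past 2-fold changed sign. The log2 ratio of the share of CD8-negative T cells ranged from -1.59 to -0.95 over 11 alternatives. It was -0.96 with 1 UMI of the T cell genes in place of 2 and -0.95 without cancer-gate cells. Over the same number of alternatives the ratio of the share of T cells without CD8 ranged from -0.04 to 0.55, of the Cd4 share from -1.18 to -0.37, of the Foxp3 share from -0.19 to 0.61 and of the Trdc share from -0.20 to 1.07. The reported intervals of the ratios for T cells without CD8, Foxp3 and Trdc spanned 0, and their signs were not stable. The first was below 0 at 500 UMIs per cell (-0.042), the Foxp3 ratio with 1 UMI of the T cell genes (-0.19), and the Trdc ratio with 1 UMI of the T cell genes (-0.20), with up to 1 CD8 UMI (-0.028) and without cells with markers of another lineage (-0.076). Genes past 2-fold between the libraries numbered 88 higher and 45 lower in TSK with at most 10000 UMIs and genes per cell, 66 and 40 without cells with markers of another lineage, 385 and 140 with equal weight, 1417 and 890 with 1 UMI of the T cell genes, and 1490 and 588 with 20 UMIs over both libraries as the minimum. With the upper limits, genes past 2-fold in both libraries numbered 52 higher and 58 lower in Foxp3 cells, 138 lower in Trdc cells and 126 higher in CD8-negative T cells. Without cells with markers of another lineage the counts were 37 higher in Foxp3 cells, 195 lower in Trdc cells and 118 higher in CD8-negative T cells, and with equal weight 63 were higher in Trdc cells. Fewer cells and UMIs enter under the upper limits and without those cells, and otherwise the cause was not tested.

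Some ratios of TSK over WT changed sign. With the upper limits these were Tmtc2 (0.78), Cd74 (0.84), Il1rl1 (0.037) and Ube2c (-0.27). With 1 UMI of the T cell genes they were Sparc (-0.44), Col1a1 (-1.08), Col1a2 (-1.05) and Col3a1 (-0.83). Without cells with markers of another lineage they were Cd74 (1.34), Ccr7 (0.024), Cxcr4 (0.028), Gzmc (2.21), Il2rb (0.016), Pecam1 (0.54), Socs2 (0.25) and Tyms (-1.22). Gzmc was at 1.96 without cells with NK markers, Lat at 0.0068 with equal weight, and among cells with a Cd4 or Foxp3 UMI alone Gzmc was at 3.09 and Klre1 at 2.09. In that last set both genes had very few UMIs, with Gzmc at 1 UMI in WT and 5 UMIs in TSK Cd4 cells without Foxp3. With 1 library per genotype the spread between mice or libraries is unknown, and the lower depth of the TSK T cells limits the detection of genes of few UMIs.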
